A study of Mus musculus with 2 samples.

Results

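Mir34a, Mir34b, Mir34c and Mir21a are 4 microRNA (miRNA) genes linked to cell senescence and to tissue fibrosis. They were taken by symbol from the 2202 annotated miRNA genes counted in gastrocnemius, the large calf muscle, and the sense-strand counts were used. The donors were adult females, 18 to 20 months old, of the mouse strain B6CASTF1/J, an F1 hybrid. MicroRNA-seq, which reads RNAs shorter than 30 bases, gave 2 libraries of this single group, numbered biological replicates 2 and 1 in the labels. Both carry the same donor entry but separate tissue entries, so nothing in the labels settles whether separate animals were used, and differences between the libraries may be technical. No young, treated or mutant mice belong to the series, so the data hold levels in aged muscle and no change with age.

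A miRNA is cut from a hairpin precursor and guides silencing of mRNAs that pair with its seed, bases 2 to 8 of the mature strand. The Mir34 genes are direct transcriptional targets of p53, and their miRNAs repress cell cycle and survival genes such as Cdk6, Ccnd1 and Bcl2 and the deacetylase gene Sirt1. Mir34a is transcribed on its own and is found in many tissues, whereas Mir34b and Mir34c are made from a shared primary transcript known mainly from testis, lung and multiciliated epithelium. Mir21a is raised by TGF-beta signalling in fibroblasts, represses Pdcd4 and Spry1, and is known as a promoter of fibrosis in heart, kidney and dystrophic muscle.

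The mature strands are printed 5′ to 3′ from RefSeq (GRCm38.p6), with the seed in capitals, because the seed sets which miRNAs can share targets. All members matched the RefSeq table by symbol. Mir34a and Mir34b share the seed GGCAGUG in their 5p strands with Mir449a and Mir449c, which lie outside the member list. RefSeq gave no 5p strand for Mir34c, whose hairpin, printed below, also holds GGCAGUG.
mmu-miR-34a-5p: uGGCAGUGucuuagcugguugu
mmu-miR-34b-5p: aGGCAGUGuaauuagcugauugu
mmu-miR-449a-5p: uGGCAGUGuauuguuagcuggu
mmu-miR-449c-5p: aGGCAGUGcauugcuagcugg
Counted from base 1 without gaps, mmu-miR-34a-5p matched mmu-miR-34b-5p at 11 of 22 positions and mmu-miR-449a-5p at 15 of 22. The mmu-miR-34b-5p strand is 23 bases long, and a count without gaps can put strands of unequal length out of register. No comparison with gaps was made, so these values do not rank the strands by likeness. In their 3p strands, Mir34b and Mir34c share another seed with each other.
mmu-miR-34b-3p: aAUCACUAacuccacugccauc
mmu-miR-34c-3p: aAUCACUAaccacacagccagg
These 3p strands were identical at 17 of 22 positions. The Mir21a strand mmu-miR-21a-5p is shown with the strands of Mir21c, which has the same seed, and Mir21b, which does not, since both could take reads from it.
mmu-miR-21a-5p: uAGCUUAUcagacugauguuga
mmu-miR-21c: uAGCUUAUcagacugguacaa
mmu-miR-21b: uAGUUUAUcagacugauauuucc
Mir21c and Mir21b had 0 counts in both libraries.

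The hairpins of the Mir34 genes are shown with the same 7 bases in capitals, which occur once in each. They are the units to which reads were assigned, and the counts do not separate the 5p from the 3p strand.
Mir34a: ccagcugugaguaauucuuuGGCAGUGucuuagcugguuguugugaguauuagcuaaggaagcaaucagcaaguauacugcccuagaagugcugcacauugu
Mir34b: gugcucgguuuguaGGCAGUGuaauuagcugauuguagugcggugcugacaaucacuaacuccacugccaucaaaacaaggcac
Mir34c: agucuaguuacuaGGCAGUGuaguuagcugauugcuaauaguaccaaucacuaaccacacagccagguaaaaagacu
The Mir34a hairpin (ENSMUSG00000065493.1) lies at chr4:150068454-150068555 on the plus strand of mm10, in an exon of the unclassified transcript Gm37795. Mir34b (ENSMUSG00000065492.1) lies at chr9:51103562-51103645 and Mir34c (ENSMUSG00000065587.1) at chr9:51103034-51103110, both on the minus strand, 451 bases apart and inside an intron of Btg4, which runs on the other strand. Mir21a (ENSMUSG00000065455.1) lies at chr11:86584067-86584158 on the minus strand, in an untranslated exon of Vmp1, a gene of autophagy. The hairpins are 102 bases long for Mir34a, 84 for Mir34b, 77 for Mir34c and 92 for Mir21a, and their predicted folding energies (RNAfold) were -42.6, -33.1, -29.8 and -46.2 kcal/mol. The longest run that a member shares with any other annotated hairpin was 15 bases, between Mir21a and Mir21c. For the Mir34 genes it was 12 bases or fewer. These are exact runs, which any mismatch ends. From the seed onward the printed Mir34b and Mir34c hairpins read nearly alike over the 5p strand. How well their reads separate was not tested. Copies elsewhere in the genome were not searched here.

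Replicate 2 held 2177048 sense counts on miRNA genes and replicate 1 held 865419, and levels are given as CPM, which is the count divided by this total and multiplied by 1000000. Reads that mapped to several places enter no gene count, and they were 71.0% of the replicate 2 reads and 80.7% of the replicate 1 reads. A count of 0 allows a level of up to 3 counts, equal to 1.38 CPM at the depth of replicate 2 and 3.47 CPM at that of replicate 1. Intervals are exact 95% intervals, and both they and these limits cover counting error only. The 8 striated muscle markers, among them the muscle miRNA Mir206, made up 10.4% of the replicate 2 counts and 4.09% of the replicate 1 counts, and none of them was at 0 in both libraries. Mir206 alone held 224741 of their 227409 counts in replicate 2 and 34953 of 35417 in replicate 1, so these shares follow Mir206. Of the 8 markers, 5 share a long run of bases with another hairpin and can lose reads to multimapping.

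Mir21a was the most abundant of the 4 genes, followed by Mir34a, Mir34c and Mir34b, and this order was the same in both libraries. Mir21a had 11390 counts in replicate 2 and 13785 in replicate 1, or 5232 CPM (Poisson interval 5136 to 5329) and 15929 CPM (15664 to 16197). It averaged 10580 ± 7564 CPM (SD, n = 2), took 0.523% and 1.59% of all gene counts, and ranked 29 and 16 among the miRNA genes. Without replicate 1 its level is 5232 CPM, so its mean rests on which library is used.

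Mir34a had 1511 counts in replicate 2 and 398 in replicate 1, or 694 CPM (660 to 730) and 460 CPM (416 to 507). Its mean was 577 ± 166 CPM (SD, n = 2), and it ranked 73 and 82. Both libraries thus placed Mir34a, the p53 target found in many tissues, at a moderate level among the 572 and 456 miRNA genes with any count.

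The cluster genes were far lower. Mir34c had 76 counts in replicate 2 and 37 in replicate 1, or 34.9 CPM (27.5 to 43.7) and 42.8 CPM (30.1 to 58.9), with a mean of 38.8 ± 5.55 CPM (SD, n = 2) and ranks of 209 and 168. Mir34b had 5 counts and 1 count, or 2.30 CPM (0.746 to 5.36) and 1.16 CPM (0.0293 to 6.44). The single Mir34b read of replicate 1 lies below the limit that a count of 0 allows, so Mir34b was barely detectable at these depths. The lowest value of each gene lay above the highest value of the next gene in the order, so the spread between libraries did not change it.

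**Figure D1:**
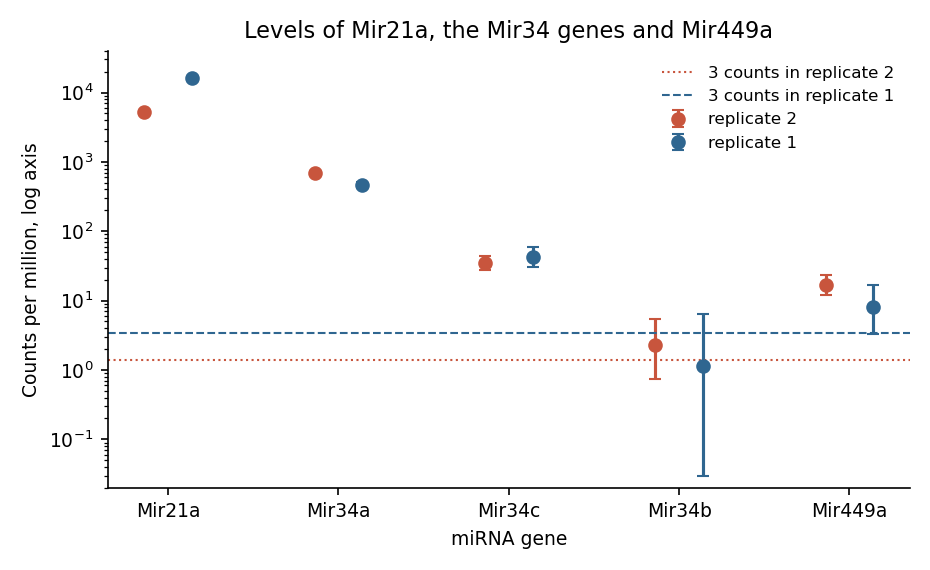
Level of each gene in replicate 2 (red) and replicate 1 (blue) as CPM on a log axis, with exact Poisson 95% intervals that cover counting error only; horizontal lines mark 3 counts in each library. Mir21a stands highest and Mir34b lies at or near the 3-count lines, while Mir34a stands between Mir21a and the cluster genes.

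Mir34a exceeded the Mir34b and Mir34c cluster by about an order of magnitude in each library. The ratio of Mir34a to the summed Mir34b and Mir34c counts was 18.7 (1511 to 81 counts, exact binomial interval 14.9 to 23.6) in replicate 2 and 10.5 (398 to 38 counts, 7.50 to 15.0) in replicate 1. On the log2 scale the ratio averaged 3.81 ± 0.59 (SD, n = 2). Both members of the ratio come from the same library, so no scaling enters it. No p is given, since 2 libraries cannot go below p = 0.5 in an exact two-sided permutation of signs.

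The 2 libraries differed in this ratio by more than counting error, at 1.78 times as high in replicate 2 as in replicate 1 (exact interval 1.16 to 2.70). Against Mir34c alone, Mir34a was 19.9-fold higher in replicate 2 (15.8 to 25.4) and 10.8-fold higher in replicate 1 (7.67 to 15.5). Divided by hairpin length, the Mir34a level was 15.0 times the Mir34c level in replicate 2 and 8.12 times in replicate 1. A count measures captured reads, and counts of different miRNAs were not calibrated against known amounts here.

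Mir21a exceeded Mir34a in both libraries, but by unequal amounts. The ratio was 7.54 (7.14 to 7.96) in replicate 2. In replicate 1 it was 34.6 (31.3 to 38.4), giving a mean of 4.01 ± 1.56 on the log2 scale (SD, n = 2). Replicate 2 therefore had 0.218 times the ratio of replicate 1 (0.194 to 0.244). Divided by hairpin length, with the same limit as above, the Mir21a level was 8.36 times that of Mir34a in replicate 2 and 38.4 times in replicate 1.

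**Figure D2:**
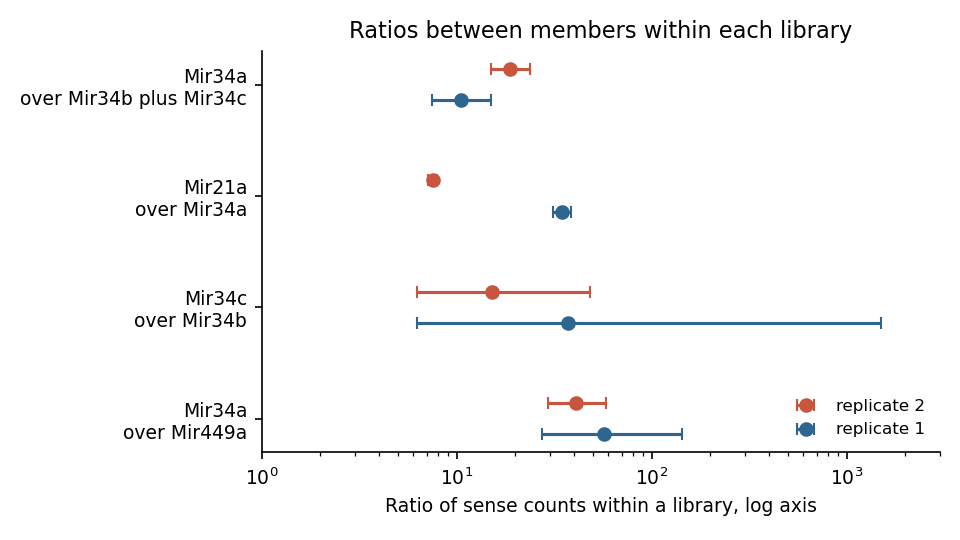
Ratios of sense counts between genes within replicate 2 (red) and replicate 1 (blue) on a log axis, with exact 95% binomial intervals for counting error. Mir34a over Mir34b plus Mir34c is 18.7 and 10.5, and Mir21a over Mir34a is 7.54 and 34.6.

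Mir34c and Mir34b, although neighbours on one strand, were counted at unequal levels. Mir34c exceeded Mir34b by 15.2-fold in replicate 2 (6.24 to 48.2) and 37-fold in replicate 1, where the interval of 6.24 to 1500 is wide because Mir34b had a single read. The intervals overlap, and the ratio of replicate 2 to replicate 1 was 0.413 (0.00846 to 3.89), so a difference between libraries was not detectable at this depth. The mean log2 ratio was 4.57 ± 0.91 (SD, n = 2).

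Unequal neighbours were common. There were 91 pairs of adjacent miRNA genes on one strand no more than 1000 bases apart, with a summed mean of at least 10 counts. The higher gene of a pair exceeded the lower by a median of 3.39 on the log2 scale, with a gene at 0 entered at 3 counts. Hairpins that share 18 bases or more with another can lose reads to multimapping, and 51 pairs had no such hairpin. This measure counts exact runs only and misses near matches, such as that between the 5p strands of Mir34b and Mir34c. In these the median was 3.14, and the Mir34c and Mir34b pair was among the 10 with a log2 ratio of 4.57 or more. Of the 33 pairs that also had counts on both sides in both libraries, 4 reached that value, the Mir34 pair included.

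**Figure D3:**
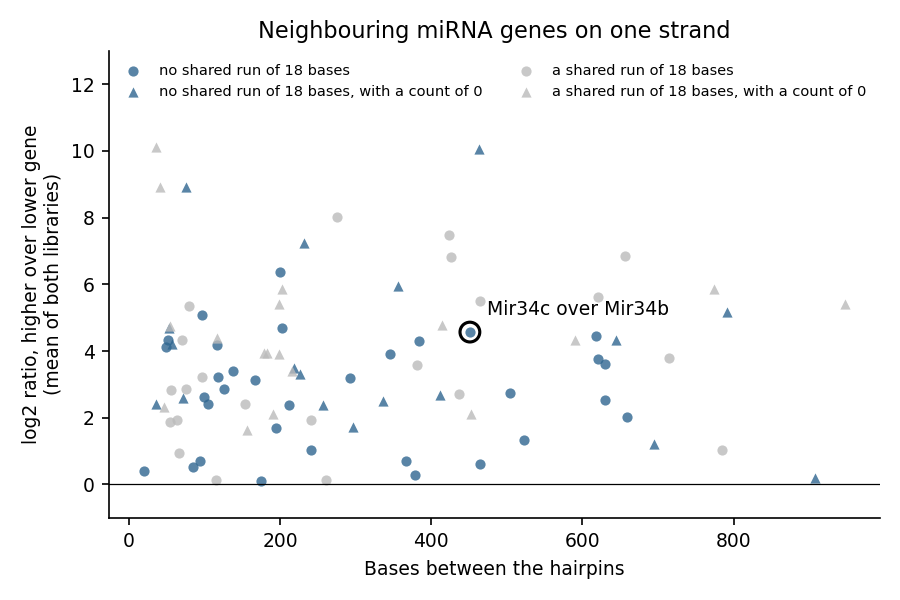
Each point is a pair of adjacent miRNA genes on one strand; the x axis is the number of bases between the hairpins and the y axis the log2 ratio of the higher to the lower gene (mean of both libraries). The Mir34c and Mir34b pair (circled) lies at 451 bases and 4.57, above the median of 3.39 over all 91 pairs.

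Among the genes that carry the GGCAGUG seed, Mir34a held nearly all counts. Of the 1629 counts on the Mir34 and Mir449 genes in replicate 2, Mir34a held 92.8% (exact Clopper-Pearson interval 91.4 to 94.0), Mir34c 4.67%, Mir449a 2.27% and Mir34b 0.307%. Of the 443 counts in replicate 1 it held 89.8% (86.6 to 92.5), with 8.35% for Mir34c, 1.58% for Mir449a and 0.226% for Mir34b. Mir449a, which lies in an intron of Cdc20b and is known from multiciliated epithelium, had 37 counts in replicate 2 and 7 in replicate 1, or 17.0 and 8.09 CPM. Mir34a exceeded it 40.8-fold (29.5 to 58.2) in replicate 2 and 56.9-fold (27.3 to 142) in replicate 1. Mir449b and Mir449c had 0 counts in both libraries, so of the 3 multiciliated markers only Mir449a was detected. The epithelial markers, which are the Mir200 genes with Mir141, Mir429, Mir203 and Mir205, summed to 270 CPM in replicate 2 and 342 CPM in replicate 1. The lower sum in replicate 2 is that of Mir203, at 130 and 318 CPM, while Mir200b, Mir200c, Mir429 and Mir205 were higher in replicate 2. Their part in the Mir34b and Mir34c counts was not tested. In bulk tissue, fewer cells of a type and less RNA per cell cannot be told apart.

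Between the libraries, Mir21a was lower in replicate 2 while Mir34a and Mir34c did not pass the call. The call used a two-sided exact binomial test of the 2 libraries with Benjamini-Hochberg adjustment over the 305 genes that averaged 10 counts or more. It needed both a ratio of 2 or more in either direction and an adjusted p below 0.05. Such a call compares these libraries and their counting error, and no conditions. Of the 305 genes, 33.8% were called: 26.9% were higher in replicate 2 and 6.89% in replicate 1. This split depends on the scaling: 82 of the 103 called genes were higher in replicate 2, against 66 of 98 with TMM scaling (edgeR) and 58 of 97 with DESeq2 size factors. Of the 4 members, 3 were tested and Mir34b was not, with 5 counts and 1 count.

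Mir21a in replicate 2 stood at 0.328 times its level in replicate 1 (0.320 to 0.337), a log2 ratio of -1.61. Of the 305 tested genes, 9 had a ratio that low or lower, Mir21a included, and of the 50 most abundant genes 3 did. Mir34a was 1.51 times as high in replicate 2 (1.35 to 1.69, adjusted p = 1.57e-13 by the exact test). This is below the ratio needed for a call. With TMM its log2 ratio was 0.31 (adjusted p = 2.3e-04 by the exact test). With DESeq2 size factors it was 0.18 (adjusted p = 0.051 by the exact test), so the small p depends on the scaling. With CPM, the median of all tested genes was a log2 ratio of 0.43, so Mir34a, at 0.59, lay 0.16 above it. Mir34c had a ratio of 0.817 (0.544 to 1.24, adjusted p = 0.419 by the exact test), which lay 0.73 below that median on the log2 scale. For Mir34c, TMM gave a log2 ratio of -0.57 (adjusted p = 0.075 by the exact test). DESeq2 size factors gave -0.71 (adjusted p = 0.031 by the exact test), short of the ratio needed for a call. Its p thus depends on the scaling too. Mir34b had a ratio of 1.99, with an interval of 0.222 to 94.0 that holds no direction.

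**Figure D4:**
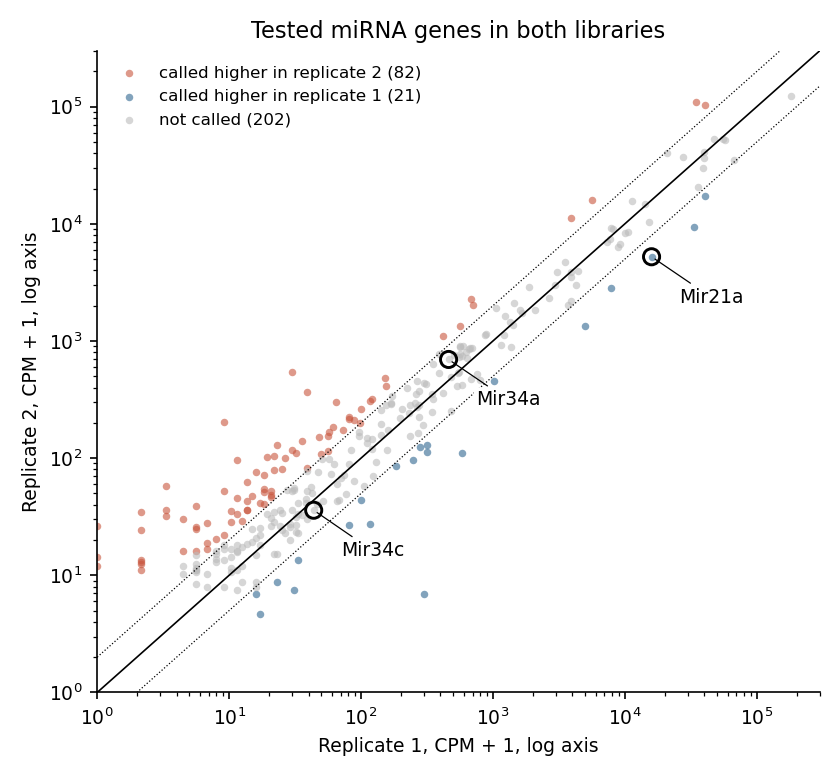
CPM + 1 of the 305 tested genes in replicate 2 (y axis) against replicate 1 (x axis), both on log axes, with genes called higher in replicate 2 in red and those called higher in replicate 1 in blue; the solid line marks equality and the dotted lines a ratio of 2. Mir21a lies below the lower dotted line among the abundant genes, and Mir34a and Mir34c lie between the dotted lines.

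Some markers of other cell types also differed between the libraries, and they did not move in one direction. Smooth muscle markers Mir143 and Mir145a summed to 37985 CPM in replicate 2 and 75404 CPM in replicate 1, and Mir145a was called lower in replicate 2 while Mir143 was not called. Leukocyte markers summed to 4930 and 4442 CPM. Of the 6, Mir142 and Mir223 were called lower in replicate 2 and Mir150, Mir155, Mir146 and Mir342 were not called. The 4 fibroblast markers, Mir214, Mir199b, Mir199a-1 and Mir199a-2, summed to 1383 and 633 CPM, and Mir214, called higher in replicate 2, held most of both sums at 1335 and 564 CPM. Mir199a-2 was called lower in replicate 2 (5.97 and 15.0 CPM), Mir199b was not called (41.8 and 50.8 CPM) and Mir199a-1 had 0 counts and 3 counts. These 3, unlike Mir214, share a long run of bases with another hairpin and can lose reads to multimapping. The endothelial marker Mir126a, at 52968 and 47279 CPM, was not called, and neither were the 2 erythroid markers Mir451a and Mir144. All 5 tested epithelial markers were called, Mir203 lower in replicate 2 and the other 4 higher, with a list median log2 ratio of 2.37. In replicate 1 Mir200b, Mir200c, Mir429 and Mir205 had 4, 7, 1 and 9 counts, against 52, 112, 51 and 70 in replicate 2. These 4 reached a mean of 10 counts only through replicate 2, where they are high, so their calls and this median lean on the filter. Of the 7 tested striated muscle markers, Mir206, Mir208b and Mir499 were called higher in replicate 2. The rest did not pass the call: Mir133b had a log2 ratio of 0.46, Mir133a-1 of 0.59, Mir1a-1 of -0.21 and Mir1a-2 of -0.74. The calls in these lists stand beside 26.9% of all tested genes called higher in replicate 2 and 6.89% called higher in replicate 1.

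The ratio of Mir21a to these markers within a library differed between the libraries by an amount that varied from marker to marker, also inside one list. Each such difference is the Mir21a ratio between libraries divided by that of the marker, so it restates the marker differences above. Mir21a over Mir143 was 0.149 in replicate 2 and 0.236 in replicate 1. Mir21a over Mir145a was 1.84 in replicate 2 and 2.03 in replicate 1. For the leukocyte markers Mir142 and Mir223, replicate 2 had 0.842 and 0.746 times the ratio of replicate 1, whereas for Mir150, Mir155, Mir146 and Mir342 it had 0.313, 0.222, 0.321 and 0.319 times, near the 0.328 of the Mir21a level itself or below it. Among the fibroblast markers it had 0.826 times for Mir199a-2, 0.400 times for Mir199b and 0.139 times for Mir214, and for Mir126a it had 0.293 times. Among the epithelial markers it had 0.806 times for Mir203 and 0.0162 to 0.106 times for the other 4. The value of 0.0162 is that of Mir429, which had 1 count in replicate 1, with an interval of 3.48 to 816 for its own ratio between libraries. Mir200b, Mir200c and Mir205 had 4, 7 and 9 counts there, so these values are imprecise. The part of these cell types in the Mir21a difference was not tested, and with 2 libraries it cannot be told apart from the difference between libraries.

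The genes nearest to each member in level, by distance of log2(CPM + 1) over both libraries, were found among the tested genes. For Mir34a they were Mir3102, Mir411 and Mir484, at distances of 0.184, 0.272 and 0.273. For Mir34c they were Mir331, Mir669c and Mir431, at 0.204, 0.289 and 0.290. Mir21a had no neighbour that close, and its nearest genes were Mir196b, Mir151 and Mir30d, at 0.875, 0.896 and 0.919. With 2 libraries, this likeness describes level and little else.

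Other miRNAs with roles near those of the members were described by 4 lists. Of 12 p53-linked genes, which include the Mir34 genes, all were in the files and 9 were tested. None was called higher in replicate 2, beside 26.9% of all tested genes, and 1 (Mir145a) was called higher in replicate 1, beside 6.89%, with a list median log2 ratio of -0.21 beside 0.43 for all tested genes. Mir15a, a repressor of Bcl2, lay above Mir34a, with 1898 CPM in replicate 2 and 1050 in replicate 1. Mir192 and Mir194-2, p53 targets known from gut and liver, averaged 27.2 ± 7.29 and 25.3 ± 9.66 CPM (SD, n = 2), below Mir34c. Mir143 was called lower in replicate 2 as well under each of the 3 other scalings. Mir215, a relative of Mir192, had 0 counts in both libraries.

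Of 8 senescence genes, 6 were tested. Mir22, which represses Sirt1 as Mir34a does, was called higher in replicate 2 at 108765 against 34676 CPM, and so was Mir106b, a repressor of the cell cycle inhibitor gene Cdkn1a, at 482 against 150 CPM. Mir93, Mir17 and Mir20a, relatives of Mir106b by seed, and the inflammation-linked Mir146 were not called. The 2 of 6 called higher lie near the share of 26.9% over all tested genes. Mir20a was called lower in replicate 2 with TMM and DESeq2 size factors, and Mir17 with DESeq2 size factors. Mir217 had 2 counts and 1 count. The list median was -0.08.

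Of 6 fibrosis-promoting genes, 5 were tested. Mir21a and Mir199a-2 were called lower in replicate 2 and Mir214 higher, beside 6.89% and 26.9% of all tested genes called in those directions. The Mir199a-2 call rests on 13 counts in each library and lies near the limit (adjusted p = 0.0398 by the exact test). Under TMM scaling, and also under that of DESeq2, Mir214 was not called. Mir21a held 11390 of the 19015 counts of this list in replicate 2 and 13785 of 15572 in replicate 1, so the summed level of the list, 8734 against 17994 CPM, follows Mir21a. The list median was -0.28.

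Of 13 fibrosis-opposing genes, 10 were tested. Mir29b-1, Mir200b, Mir200c and Mir429 were called higher in replicate 2, no member was called the other way, beside 26.9% and 6.89% of all tested genes, and the list median was 0.54. Mir200b, Mir200c and Mir429 are also epithelial markers. With TMM and with DESeq2 size factors the Mir29b-1 call was lost and Mir29c was called lower in replicate 2. Mir29a, a repressor of collagen genes, had 14792 CPM in replicate 2 and 14193 in replicate 1. In replicate 2 Mir21a therefore lay below Mir29a, and in replicate 1 it lay above it. Members with a near copy share 18 bases or more with another hairpin, and their counts are lower bounds. Among them are Mir29b-1, Mir29b-2, Mir199a-1, Mir199a-2, Mir199b, Mir194-2 and Mir16-1.

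**Figure D5:**
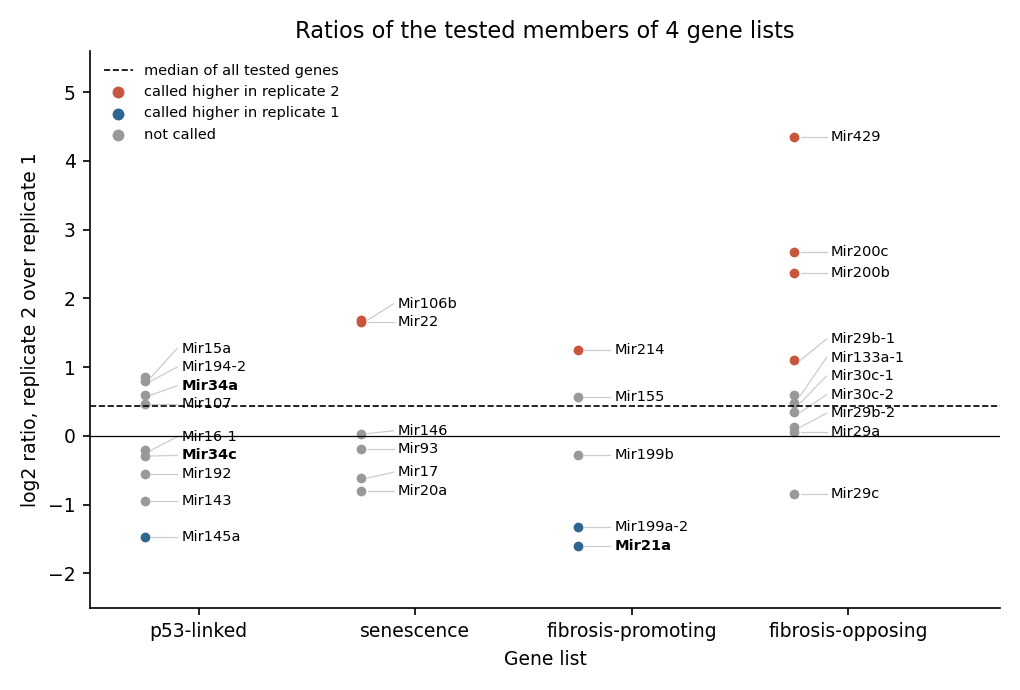
log2 ratio of replicate 2 over replicate 1 for each tested gene of 4 lists, with red points called higher in replicate 2, blue points called higher in replicate 1 and grey points not called; the dashed line is the median of all tested genes, 0.43. Mir34a and Mir34c (bold) lie among the uncalled p53-linked genes, and Mir21a (bold) is the lowest of the fibrosis-promoting genes.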

How the data were processed

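The authors deposited raw read counts for each miRNA gene, unnormalized, on mm10 and GENCODE M21 per the file headers of the accompanying README. The sources used here do not give the aligner, counting tool or adapter trimming. Each file holds 4 tallies and 2202 genes in 3 count columns, which from their values are unstranded, sense and antisense. The sense column was used, and all 2202 identifiers matched GENCODE M21. The tallies, which include multimapping reads (71.0% of reads in replicate 2, 80.7% in replicate 1), stayed out of totals and tests. All 4 members had 0 antisense counts and equal sense and unstranded counts.

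CPM, exact intervals, ratios and the exact binomial test were computed with SciPy 1.17.1, pandas 2.3.3 and NumPy 2.4.6 under Python 3.11.15. Scaling by edgeR 4.0.16 (TMM) and DESeq2 1.42.0 in R 4.3.3, other filters, the unstranded column and each library left out were alternatives. The test was also run on simulated Poisson counts. These hold counting error only, so the run could not check calls against further variation between libraries. Hairpins were folded with RNAfold 2.7.2. Genes named were the members, genes sharing a seed, the 3 nearest in level, up to 4 per list by mean CPM and called list members. Others, such as Mir192, Mir194-2, Mir215, Mir217, Mir15a and the markers set against Mir21a, were named after their values were seen. The members and lists were chosen with earlier results of these data known.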

Additional observations from a re-analysis of the deposited data

How the results depend on the processing

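The order of the 4 members and the call on Mir21a held under every scaling, filter and column tried. Mir21a stayed lower in replicate 2, with a log2 ratio of -1.61 to -2.02. Mir34a (0.18 to 0.59) and Mir34c (-0.71 to -0.29) stayed uncalled, except that Mir34c was not tested at a mean of at least 100 counts. Without a ratio threshold Mir34a passes with CPM, but its adjusted p with DESeq2 size factors was 0.051 by the exact test. Mir34c goes the other way, with an adjusted p of 0.419 with CPM and 0.031 with DESeq2 size factors by the exact test. Mir34b was tested only without a filter. TMM lowers every log2 ratio by 0.28 and DESeq2 size factors by 0.42, and the total without the most abundant gene by 0.10. With the unstranded column the mean level was 747 CPM for Mir34a and 50.7 CPM for Mir34c. With the most abundant gene left out of the totals, Mir34c averaged 46.0 CPM. Of all genes, 103 were called, 50 with a mean of at least 100 counts (fewer genes were tested) and 207 without a ratio threshold. Leaving out a library gave log2 ratios of 3.39 to 4.22 for Mir34a over Mir34b plus Mir34c and 2.91 to 5.11 for Mir21a over Mir34a. With TMM and with DESeq2 size factors, the calls on Mir214 and Mir29b-1 were lost and Mir143, Mir20a, Mir29c and Mir1a-2 were called lower in replicate 2. DESeq2 size factors also added Mir17 and lost the call on Mir206, and Mir143 was also called with the most abundant gene left out of the totals. The 5 counts and 1 count of Mir34b limit every ratio that rests on it alone. No paired analysis was possible because the series has 1 group.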
